A study of Macaca mulatta with 4 samples.

Results

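The genes described here encode the proteasome, the protease that destroys ubiquitin-tagged proteins, together with its assembly factors, activators and inhibitor. They were taken from a table of 23697 rhesus monkey (Macaca mulatta) genes by symbol, as every symbol made of PSM, a letter from A to G and a number. The rule found 49 rows with 48 distinct symbols, and 47 of the rows had a mean of at least 1 FPKM over the libraries used, the level needed to enter a comparison. One symbol, PSMC3IP, matches by its letters and encodes a recombination protein, and PSMC1 stands on 2 rows. RNA was sequenced from diploid neural progenitor cells (NPCs, dividing precursors of neurons and glia), haploid embryonic stem cells (ESCs) and diploid ESCs, with 1 library each, in a series on haploid NPCs and their use in genetic screens. All samples are labelled as differentiated in vitro and as embryo tissue, with embryonic day 3.5 for the diploid NPCs, 2.5 for the haploid ESCs and 3.5 for the diploid ESCs, so that ploidy and embryonic day cannot be told apart between the ESCs. The labels name no cell line, clone, passage or treatment. Haploid NPCs, the remaining sample of the series, were not analysed here.

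The proteasome is a barrel, the 20S core particle, capped at its ends by a 19S regulatory particle. The core stacks rings of alpha subunits, which form the gate, on rings of beta subunits, some of which carry the proteolytic sites. The 19S particle recognises ubiquitin chains, removes them, and unfolds and threads the substrate with a ring of ATPases. Cells of the immune system, and other cells exposed to interferon gamma, replace the constitutive catalytic subunits with immunoproteasome subunits, which favour peptides that fit MHC class I molecules. In stem cells and neural precursors the proteasome clears damaged proteins and turns over short-lived regulators of the cell cycle and of cell identity.

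Levels are in FPKM, which divides a gene's fragments by its transcript length and by the size of the library, so that genes can be set side by side within a library. Differences are log2 ratios of FPKM plus 1, where 1 means 2-fold, and genes past 2-fold were counted. With 1 library per group there was no replicate and no test, so that no difference below has a check against the spread between samples. Relative sequencing depth was estimated from the most common ratio between libraries among genes at 0.15 to 0.6 FPKM, on the assumption that those genes held equal read counts. It was 78.8% for diploid NPCs and 95.3% for haploid ESCs, relative to diploid ESCs. Summed levels of 6 pluripotency markers were 112, 2148 and 2741 FPKM in diploid NPCs, haploid ESCs and diploid ESCs, and those of 6 neural progenitor markers 1915, 616 and 599 FPKM, both sums in the direction of the labels. The neural sum in NPCs came mainly from VIM (1101 FPKM) and FABP7 (403 FPKM). NES was nearly level, at 280, 266 and 253 FPKM. SOX2, which is on both lists, was lower in NPCs, at 109, 161 and 149 FPKM. Of 8 fibroblast markers, which would be high in feeder cells, the sums were 109, 579 and 456 FPKM. The ESC sums came mainly from COL1A1, COL1A2 and THY1, while DCN was at 1.13, 1.60 and 0.87 FPKM and LUM at 2.17, 0.26 and 0.98 FPKM. The sums of 4 endoderm markers were 1.19, 8.83 and 151 FPKM, so that the diploid ESC library alone held marked endoderm transcripts. Whether such other cells were present, and their part in the results, was not tested.

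Proteasome transcripts were abundant in all 3 libraries, and those of the stable complex stayed within 2-fold of diploid ESCs in both other libraries. The 32 rows of constitutive 20S and 19S subunits ranged between 31.6 and 363 FPKM in diploid NPCs, between 24.8 and 247 FPKM in haploid ESCs and between 25.7 and 290 FPKM in diploid ESCs. None of the 32 was past 2-fold in diploid NPCs or in haploid ESCs against diploid ESCs, although 1 of them, PSMC3, was between diploid NPCs and haploid ESCs. The members that were past 2-fold in diploid NPCs against diploid ESCs lay outside the stable complex. Higher were PSME2, PSMG3 and the non-member by function PSMC3IP, and lower were PSME3, PSME4 and PSMD5. These are 3 higher and 3 lower rows of 47, while 22.7% of all 14474 genes tested were past 2-fold higher and 19.6% past 2-fold lower. In haploid against diploid ESCs only PSMD5 was past 2-fold, 1 higher row of 47 and none lower, against 7.19% of all genes higher and 9.18% lower. Among the 1677 genes with a mean of 50 to 300 FPKM, the range of most subunits, these shares were 18.3% higher and 17.4% lower in NPCs, and 3.64% higher and 8.23% lower in haploid ESCs. The median log2 ratio of the 47 rows was 0.016 in diploid NPCs over diploid ESCs, beside 0.0077 over all genes tested, and -0.041 in haploid over diploid ESCs, beside 0.025. At 1.5-fold, 7 members were higher and 8 lower in NPCs (32.5% and 30.8% of all genes), and 3 higher and 4 lower in haploid ESCs (18.4% and 18.6%). The 7 include the immunoproteasome subunit PSMB9, which met the filter only through its NPC value. At 4-fold, 1 was higher and 1 lower in NPCs (8.28% and 6.11% of all genes) and none in either direction in haploid ESCs (1.04% and 2.53%). In such bulk RNA, fewer cells of a type and less RNA per cell cannot be told apart.

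**Figure D1:**
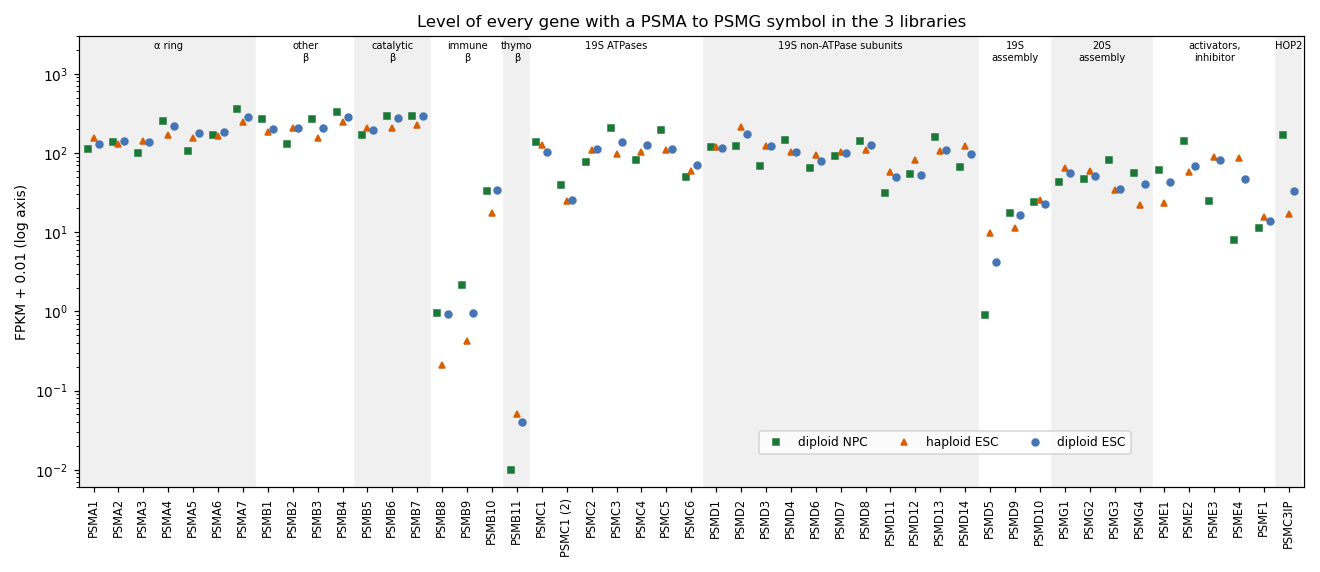
FPKM plus 0.01 on a log axis for each of the 49 rows, grouped by role, with 1 point for each library (squares diploid NPC, triangles haploid ESC, circles diploid ESC). The constitutive 20S and 19S subunits sit between 24.8 and 363 FPKM, while PSMB8, PSMB9 and PSMB11 lie below 3 FPKM in every library.

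The alpha ring is built from 7 different subunits. PSMA7 was the highest of them, at 363 FPKM in diploid NPCs, 247 FPKM in haploid ESCs and 281 FPKM in diploid ESCs. PSMA4, whose tail helps to close the gate of the ring, stood at 252, 171 and 217 FPKM in the same order of libraries. Both had their highest value in NPCs, with log2 ratios over diploid ESCs of 0.37 and 0.21. PSMA5 went the other way and had the lowest NPC ratio of the ring, at 106 FPKM in diploid NPCs, 154 FPKM in haploid ESCs and 180 FPKM in diploid ESCs, a log2 ratio of -0.76. PSMA3 stood at 99.5, 140 and 138 FPKM. PSMA6, at 170, 163 and 185 FPKM, and PSMA2, at 139, 129 and 141 FPKM, were close in all libraries. In haploid over diploid ESCs the ratios of the ring ran from -0.34 for PSMA4 to 0.27 for PSMA1, which was at 112 FPKM in diploid NPCs, 154 FPKM in haploid ESCs and 128 FPKM in diploid ESCs. The germline paralog PSMA8 was not analysed here.

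Among the beta subunits without a proteolytic site, PSMB1 had the highest NPC ratio, at 267 FPKM in diploid NPCs, 184 FPKM in haploid ESCs and 204 FPKM in diploid ESCs, a log2 ratio of 0.39. PSMB3 was similar, at 267, 156 and 208 FPKM, with the lowest haploid ratio of the group, -0.42. PSMB2 alone of the 4 was lower in NPCs, at 131 FPKM against 204 FPKM in haploid and 206 FPKM in diploid ESCs, a log2 ratio of -0.65 over diploid ESCs. PSMB4 was at 327, 244 and 287 FPKM. Within the barrel, neighbouring subunits that are present in equal numbers in the particle thus differed in the sign of their NPC ratio.

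The constitutive catalytic subunits were the steadiest group in NPCs, with log2 ratios from -0.19 to 0.087. PSMB5, the chymotrypsin-like subunit, was at 170 FPKM in diploid NPCs, 205 FPKM in haploid ESCs and 194 FPKM in diploid ESCs. PSMB6, the caspase-like subunit, was at 294, 206 and 277 FPKM, and PSMB7, the trypsin-like subunit, at 293, 223 and 290 FPKM. In haploid ESCs PSMB6 and PSMB7 were lower than in diploid ESCs, with log2 ratios of -0.42 and -0.38, while PSMB5 was at 0.076. After each library was rescaled to the same FPKM sum, these ratios were -0.22 and -0.17. That rescaling put the median log2 ratio of all genes in haploid ESCs at 0.21, beside 0.025 as deposited, and gave 1820 genes higher and 1247 lower past 2-fold, beside 1041 and 1329.

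Over the 14 constitutive 20S subunits, the median log2 ratio was -0.0026 in NPCs, with 7 above and 7 below 0. In haploid ESCs it was -0.18, with 11 of the 14 below 0, but after rescaling to equal sums it was 0.024 with 6 below 0, so that this direction depends on the scaling. The spread between subunits was widest in NPCs: the coefficient of variation of the 14 levels was 42.3% in diploid NPCs, 20.5% in haploid ESCs and 26.6% in diploid ESCs. The highest subunit stood 3.65 times above the lowest in diploid NPCs, 1.91 times in haploid ESCs and 2.27 times in diploid ESCs. These coefficients do not depend on the scaling of a library.

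The ATPases, which form the ring that unfolds the substrate, split in NPCs into higher and lower members. PSMC5 had the highest NPC ratio of the 32 stable-complex rows, at 195 FPKM in diploid NPCs, 110 FPKM in haploid ESCs and 113 FPKM in diploid ESCs. Its log2 ratio was 0.77, beside 0.78 for SEM1, a 19S subunit without a PSM symbol. PSMC3 stood at 207, 97.4 and 137 FPKM, with log2 ratios of 0.59 in NPCs and -0.49 in haploid ESCs, the lowest haploid ratio of the ATPases. PSMC4 had the lowest NPC ratio of the ring, at 80.5 FPKM against 103 FPKM in haploid and 125 FPKM in diploid ESCs, a log2 ratio of -0.63 over diploid ESCs. PSMC2, at 77.8, 109 and 111 FPKM, and PSMC6, at 50.01, 58.7 and 71.1 FPKM, were also lower in NPCs. The main PSMC1 row (NCBI gene 697799) was at 137, 127 and 103 FPKM, with the highest haploid ratio of the group, 0.31. A second PSMC1 row was at 39.8, 24.8 and 25.7 FPKM. Both PSMC1 values are uncertain, since reads may be split between copies of the gene.

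The non-ATPase subunits of the 19S particle form its scaffold, its ubiquitin receptors and its lid. PSMD3, a lid subunit, had the lowest NPC ratio of the stable complex, at 68.7 FPKM in diploid NPCs, 123 FPKM in haploid ESCs and 124 FPKM in diploid ESCs, a log2 ratio of -0.84. PSMD2, the scaffold that docks ubiquitin-like shuttle proteins, was at 122, 216 and 175 FPKM, and PSMD14, the deubiquitinase of the lid, at 66.0, 121 and 98.3 FPKM. All 3 were lower in NPCs than in either ESC library. PSMD13 had the highest NPC ratio of the group, at 160, 105 and 110 FPKM, or 0.53 on the log2 scale. PSMD4, a ubiquitin receptor, was at 146, 104 and 104 FPKM, higher in NPCs than in either ESC library. PSMD12 had the highest haploid ratio, at 53.7 FPKM in diploid NPCs, 82.6 FPKM in haploid ESCs and 52.9 FPKM in diploid ESCs, a log2 ratio of 0.63 in haploid over diploid ESCs. PSMD8 had the lowest haploid ratio, -0.20, at 143, 109 and 125 FPKM. PSMD1, the other large scaffold, was nearly level, at 120, 117 and 115 FPKM, as was PSMD7, the lid partner of PSMD14, at 92.6, 102 and 101 FPKM. PSMD6 stood at 64.4, 95.6 and 80.3 FPKM and PSMD11 at 31.6, 57.6 and 50.1 FPKM, both lowest in NPCs and highest in haploid ESCs.

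Over the 18 rows of 19S subunits, the median log2 ratio was -0.053 in NPCs, with 9 above and 9 below 0, and -0.0036 in haploid ESCs, with 8 above 0. After rescaling to equal sums the haploid median was 0.20 with 15 of the 18 above 0, beside an all-gene median of 0.21. The median level of the 19S rows relative to that of the 20S subunits was 0.41 in diploid NPCs, 0.59 in haploid ESCs and 0.52 in diploid ESCs, or 0.44, 0.59 and 0.54 without the second PSMC1 row. The interquartile range of the 32 stable-subunit log2 ratios was 0.86 in NPCs, against 1.67 for all genes tested and 1.46 for genes of 50 to 300 FPKM. In haploid ESCs it was 0.27, against 0.85 and 0.61.

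**Figure D2:**
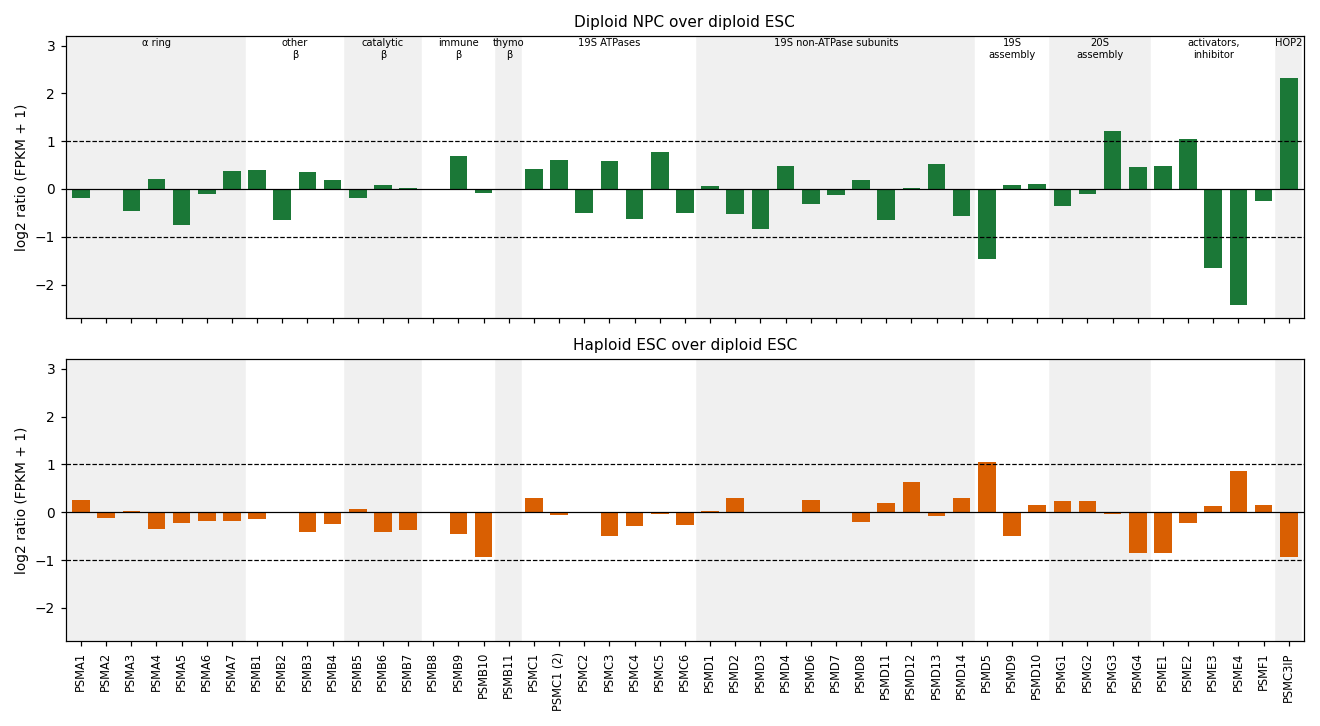
Log2 ratio of FPKM plus 1 for each of the 47 rows with a mean of at least 1 FPKM, in diploid NPCs over diploid ESCs (top) and in haploid over diploid ESCs (bottom); dashed lines mark 2-fold, and PSMB8 and PSMB11 have no bar because their means were below 1 FPKM. The bars of the 20S and 19S subunits stay within the lines in both panels, and PSME4 reaches -2.42 in the top panel.

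Assembly of the 19S base is guided by chaperones that leave the finished particle. PSMD5, one of them, was at 0.88 FPKM in diploid NPCs, 9.82 FPKM in haploid ESCs and 4.23 FPKM in diploid ESCs. That is the largest relative spread among those tested when nothing is added to the FPKM. With 1 FPKM added, the log2 ratio of PSMD5 in NPCs over haploid ESCs was -2.52, beside -3.29 for PSME4 and 3.25 for PSMC3IP. Over diploid ESCs its log2 ratio was -1.48 in NPCs and 1.05 in haploid ESCs, and its mean of 4.98 FPKM places it among the less abundant members. PSMD9 stood at 17.5, 11.3 and 16.4 FPKM, and PSMD10, also called gankyrin, at 24.4, 25.2 and 22.4 FPKM, both within 2-fold in each comparison.

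The core particle has its own chaperones, which act as pairs. PSMG1 and PSMG2, the pair that orders the alpha ring, kept close levels: PSMG1 was at 43.2 FPKM in diploid NPCs, 65.2 FPKM in haploid ESCs and 55.4 FPKM in diploid ESCs, and PSMG2 at 46.9, 59.9 and 50.6 FPKM. Both members of this pair were lowest in NPCs and highest in haploid ESCs. PSMG3 and PSMG4, the pair that acts beside it, were highest in NPCs. PSMG3 stood at 82.5 FPKM in diploid NPCs, 34.1 FPKM in haploid ESCs and 34.9 FPKM in diploid ESCs, a log2 ratio of 1.22 in NPCs. PSMG4 was at 56.5, 22.3 and 41.0 FPKM, with log2 ratios of 0.46 in NPCs and -0.85 in haploid ESCs.

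The activators, which open the gate of the core particle in place of a 19S cap, differed most. PSME1 and PSME2 encode the alpha and beta chains of PA28, the activator that is induced by interferon gamma along with the immunoproteasome. PSME2 stood at 142 FPKM in diploid NPCs, 58.3 FPKM in haploid ESCs and 68.6 FPKM in diploid ESCs, a log2 ratio of 1.04 in NPCs. That is just past 2-fold, and it was 0.97 after rescaling to equal sums. PSME1 was at 60.4, 23.2 and 42.8 FPKM, with log2 ratios of 0.49 in NPCs and -0.86 in haploid ESCs. Both PA28 chains were thus highest in NPCs and lowest in haploid ESCs. PSME3, the gamma form of PA28 that works in the nucleus, went the other way, at 24.9 FPKM in diploid NPCs, 88.6 FPKM in haploid ESCs and 80.4 FPKM in diploid ESCs, a log2 ratio of -1.65 in NPCs. PSME4, also called PA200, a nuclear activator known for the degradation of acetylated histones, was at 7.96, 86.4 and 46.9 FPKM. Its log2 ratio of -2.42 in NPCs was the lowest of all members and the only one past 4-fold lower. In haploid over diploid ESCs the ratio of PSME4 was 0.87, and 1.08 after rescaling to equal sums. NPCs were also set directly against haploid ESCs, which was added once the values were known. Cell type, ploidy and embryonic day all differ in that comparison and cannot be told apart. There PSME4 was 10.8 times higher in haploid ESCs than in NPCs, and 7 members were past 2-fold higher and 3 lower in NPCs, beside 26% and 23.9% of all genes. The 3 lower members were again PSMD5, PSME3 and PSME4. The 7 higher ones were PSMG3, PSME2 and PSMC3IP again, with PSME1, PSMG4, PSMB9 and the ATPase PSMC3, whose log2 ratio there was 1.08. Of these, PSMB9 had met the filter only through its NPC value. The lowest ratio of a stable subunit in that comparison was -0.86, for PSMD14. The inhibitor PSMF1, or PI31, was nearly level, at 11.4, 15.5 and 13.9 FPKM.

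Set against the core within each library, which removes the scaling, PSME4 was at 3.77% of the median 20S subunit in diploid NPCs, 48.7% in haploid ESCs and 22.9% in diploid ESCs, and PSME3 at 11.8%, 49.9% and 39.2%. PSME2 was at 67.3%, 32.9% and 33.4%, and PSME1 at 28.6%, 13.1% and 20.9%. The summed PA28 alpha and beta transcripts stood at 8.15 times PSME3 in diploid NPCs, 0.92 times in haploid ESCs and 1.39 times in diploid ESCs. The order of the activators was therefore PSME2, PSME1, PSME3, PSME4 in NPCs, PSME3, PSME4, PSME2, PSME1 in haploid ESCs and PSME3, PSME2, PSME4, PSME1 in diploid ESCs. In haploid ESCs PSME3 and PSME4 lay close together, and in diploid ESCs PSME4 and PSME1 did. EMC9, a membrane insertase gene that lies between PSME1 and PSME2, stood at 53.6, 17.6 and 23.1 FPKM, and it overlaps PSME1 on the reference assembly. Strand was not stated, so reads of PSME1 and EMC9 cannot be told apart where they overlap.

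**Figure D3:**
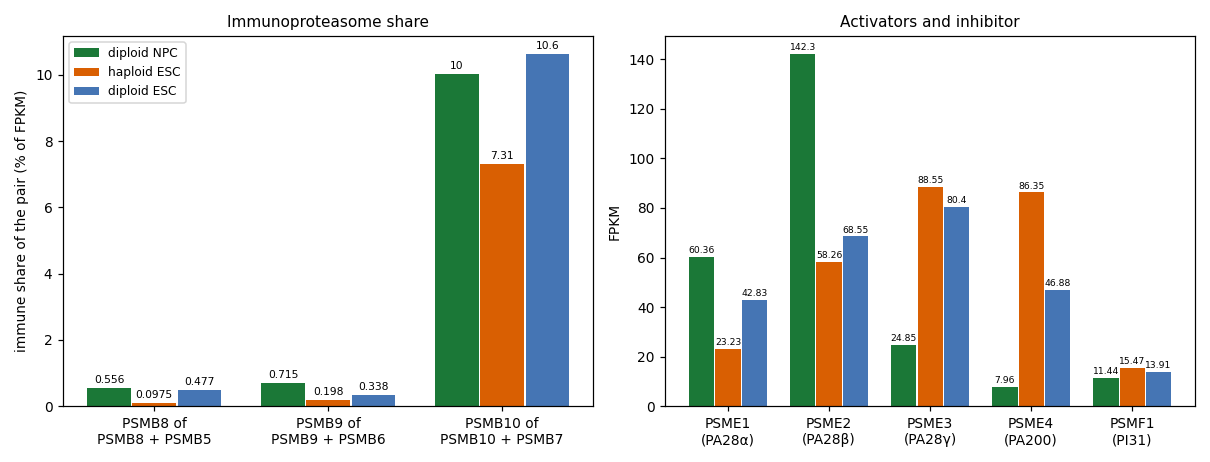
Left, the immunoproteasome subunit as a percentage of the summed FPKM of the subunit and its constitutive counterpart; right, FPKM of the 4 activator genes and the inhibitor, with 1 bar for each library and no error bars because each group held 1 library. The immune share is below 1% for PSMB8 and PSMB9 and between 7.31% and 10.6% for PSMB10, and PSME4 is lowest in diploid NPCs at 7.96 FPKM.

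The constitutive catalytic subunits far exceeded their immunoproteasome counterparts in every library, though not equally for the 3 pairs. PSMB8, the counterpart of PSMB5, was at 0.95 FPKM in diploid NPCs, 0.2 FPKM in haploid ESCs and 0.93 FPKM in diploid ESCs, which made up 0.56%, 0.098% and 0.48% of the pair. PSMB9, the counterpart of PSMB6, was at 2.12, 0.41 and 0.94 FPKM, or 0.72%, 0.20% and 0.34%. PSMB10, the counterpart of PSMB7, was an exception, at 32.7, 17.6 and 34.5 FPKM, or 10.0%, 7.31% and 10.6% of its pair. On the reference assembly PSMB10 overlaps the gene CTRL, and PSMB8 overlaps LOC106997907. Reads cannot be told apart where such genes overlap. The immune subunits are incorporated together in cells exposed to interferon, yet here the transcript of PSMB10 stood 15.4 times above that of PSMB9 in diploid NPCs, 42.9 times in haploid ESCs and 36.7 times in diploid ESCs. All 3 immune subunits were lowest in haploid ESCs. The log2 ratio of PSMB10 in haploid over diploid ESCs was -0.93, just inside 2-fold. PSMB8 had a mean below 1 FPKM and entered no comparison, and at such levels few reads stand behind a value. PSMB9 met the mean of 1 FPKM only through its NPC value, being below 1 FPKM in both ESC libraries, so its NPC ratio was favoured by the filter. It was past 2-fold in both comparisons when 0.1 FPKM rather than 1 was added, with log2 ratios of 1.09 in NPCs and -1.03 in haploid ESCs. PSMB11, the catalytic subunit of the thymus form, lies close to PSMB5 and was listed at 0 in diploid NPCs, at 0.04 FPKM in haploid ESCs and at 0.03 FPKM in diploid ESCs.

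Blood cells carry immunoproteasomes without interferon, so the level of their markers was also read. Of 9 markers of blood and immune cells, 2 reached 1 FPKM in diploid NPCs, 1 in haploid ESCs and 4 in diploid ESCs, with summed levels of 31.6, 7.09 and 20.4 FPKM. The summed values came mainly from CORO1A and CD68 in NPCs and from LCP1 in the ESCs. PTPRC, the common leukocyte antigen, was listed at 0 in diploid NPCs and stood at 0.13 FPKM in haploid and 0.01 FPKM in diploid ESCs. The marker sum was lowest in haploid ESCs, as were the immune subunits, and its part in their levels was not tested.

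Genes of the interferon response and of antigen presentation, the setting in which the immunoproteasome works, were mostly low. PSMB8 and PSMB9 lie beside TAP1 and TAP2, which pump proteasome products into the endoplasmic reticulum. TAP1, which overlaps PSMB9 on the reference assembly, was at 6.01 FPKM in diploid NPCs, 1.95 FPKM in haploid ESCs and 5.31 FPKM in diploid ESCs, a log2 ratio of -1.10 in haploid ESCs. TAP2 was level, at 3.22, 3.27 and 2.77 FPKM. The regulators IRF1, at 1.68, 2.09 and 1.57 FPKM, and NLRC5, at 0.12, 0.05 and 0.09 FPKM, were low throughout. Of 17 members of the list with a mean of at least 1 FPKM, 2 were past 2-fold higher in NPCs and 1 lower, both shares below those of all genes (22.7% and 19.6%), with a median log2 ratio of -0.28. In haploid ESCs none was higher and 1 lower, beside 7.19% and 9.18% of all genes, with a median of 0.13. After rescaling to equal sums 3 were higher and 1 lower, with a median of 0.32. Of all 14474 genes, 1820 were then higher and 1247 lower, with a median of 0.21. The higher pair in NPCs was IRF2, at 4.43 FPKM against 1.58 FPKM in diploid ESCs, and IFNGR2, at 19.6 FPKM against 9.09 FPKM in diploid ESCs, with log2 ratios of 1.07 and 1.03; only 1 was past 2-fold under either other scaling. MX1, an antiviral GTPase, was the lower one, at 1.75 FPKM in diploid NPCs, 25.7 FPKM in haploid ESCs and 14.0 FPKM in diploid ESCs. B2M, the light chain of MHC class I, was abundant in all, at 166, 187 and 227 FPKM.

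PSMC3IP is no proteasome subunit: it encodes HOP2, a partner of the recombinases in meiotic strand exchange. It was nonetheless the matching row with the highest NPC ratio, at 170 FPKM in diploid NPCs, 17.0 FPKM in haploid ESCs and 33.2 FPKM in diploid ESCs, a log2 ratio of 2.32. It was the only row past 4-fold higher in NPCs. Its annotated span overlaps 12 other genes on the reference assembly, among them RETREG3, at 39.5, 14.7 and 14.7 FPKM, and reads from overlapping genes cannot be told apart here. Without PSMC3IP the median log2 ratio of the 46 remaining rows was -0.0026 in NPCs and -0.035 in haploid ESCs, with 2 higher and 3 lower past 2-fold in NPCs.

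Other genes that serve the proteasome carry no PSM symbol. Of 12 further proteasome factors, 5 were past 2-fold lower in NPCs and none higher, beside 19.6% and 22.7% of all genes, with a median log2 ratio of -0.68. They were the deubiquitinases USP14, at 8.08 FPKM in diploid NPCs, 64.0 FPKM in haploid ESCs and 33.7 FPKM in diploid ESCs, and UCHL5, at 7.9, 31.2 and 24.7 FPKM, the ubiquitin ligase UBE3C, at 5.79, 23.1 and 18.7 FPKM, the adaptor ECM29 (listed as KIAA0368), at 10.9, 41.9 and 30.02 FPKM, and ZFAND5, at 32.0, 113 and 93.1 FPKM. Each of these 5 was highest in haploid ESCs. The other 7 had log2 ratios in NPCs between -0.74, for TXNL1, and 0.78, for SEM1. The small lid subunit SEM1 (listed as SHFM1) was at 493, 244 and 286 FPKM, the ubiquitin receptor ADRM1 at 151, 164 and 192 FPKM and the core maturation factor POMP at 110, 88.7 and 86.3 FPKM. In haploid over diploid ESCs none of the 12 was past 2-fold, beside 7.19% of all genes higher and 9.18% lower, although USP14 reached 0.91. After rescaling to equal sums 1 was past 2-fold higher, beside 1820 of all 14474 genes.

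Upstream of the particle, the 10 genes of ubiquitin activation and transfer had a median log2 ratio of -0.85 in NPCs, with 4 past 2-fold lower and none higher, beside 19.6% and 22.7% of all genes, among them UBE2N, at 44.2 FPKM in diploid NPCs, 198 FPKM in haploid ESCs and 152 FPKM in diploid ESCs. The lowest ratio was that of UBA6, the second ubiquitin-activating enzyme, at 0.78, 9.97 and 6.08 FPKM, and the highest that of UBE2S, at 341, 210 and 288 FPKM. The 10 genes that deliver substrates had a median of -0.82, with 5 past 2-fold lower and none higher, beside the same shares. Among these VCP, the segregase also called p97, was at 129, 257 and 266 FPKM and the shuttle RAD23B at 54.4, 214 and 146 FPKM. The 5 rows of ubiquitin genes were within 2-fold, with UBB at 1053, 979 and 972 FPKM. After rescaling to equal sums 1 of the 5 was past 2-fold lower in NPCs, beside 3279 of all 14474 genes. NFE2L1, also called NRF1, the transcription factor that raises proteasome genes when proteolysis is impaired, was level, at 69.6, 75.5 and 73.4 FPKM. Of its list of 9, with a median of -0.41, 1 was past 2-fold higher in NPCs, below the share of all genes (22.7%). Lower were 2, near the share of all genes (19.6%). The lower ones were NGLY1, the glycanase that processes NRF1, at 8.46, 21.3 and 20.1 FPKM, and the protease DDI2 (listed as LOC695047), which cleaves it, at 2.75, 24.3 and 12.6 FPKM. DDI2 is on both lists and is also 1 of the 5 lower genes of substrate delivery. The higher one, FBXW7, was at 15.8, 8.93 and 7.37 FPKM, a log2 ratio of 1.003 that was below 1 under both other scalings.

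Of 3 other complexes, each with fewer genes than the proteasome, the COP9 signalosome and the initiation factor eIF3 share their domain plan with the 19S lid. Their median log2 ratios in NPCs were -0.067 over 9 genes and -0.065 over 12, with 1 and 0 past 2-fold higher and none lower, beside 22.7% and 19.6% of all genes. COPS4 was the higher one, at 126 FPKM in diploid NPCs, 39.3 FPKM in haploid ESCs and 43.1 FPKM in diploid ESCs. The CCT chaperonin, which folds actin and tubulin, had all 8 subunits lower in NPCs than in diploid ESCs under each scaling, with a median of -0.90. As deposited, 2 of the 8 were past 2-fold lower, beside 19.6% of all genes. After rescaling to equal sums 4 of the 8 were, beside 3279 of all 14474 genes. TCP1, the CCT subunit with the lowest NPC ratio, was at 120, 270 and 273 FPKM. In NPCs the 32 proteasome subunit rows, at a median of -0.0026, lay nearer to the signalosome and eIF3, with no test of the difference. In haploid over diploid ESCs their median of -0.046 lay nearest to that of CCT, -0.15. The signalosome was at 0.17 and eIF3 at -0.29 there.

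**Figure D4:**
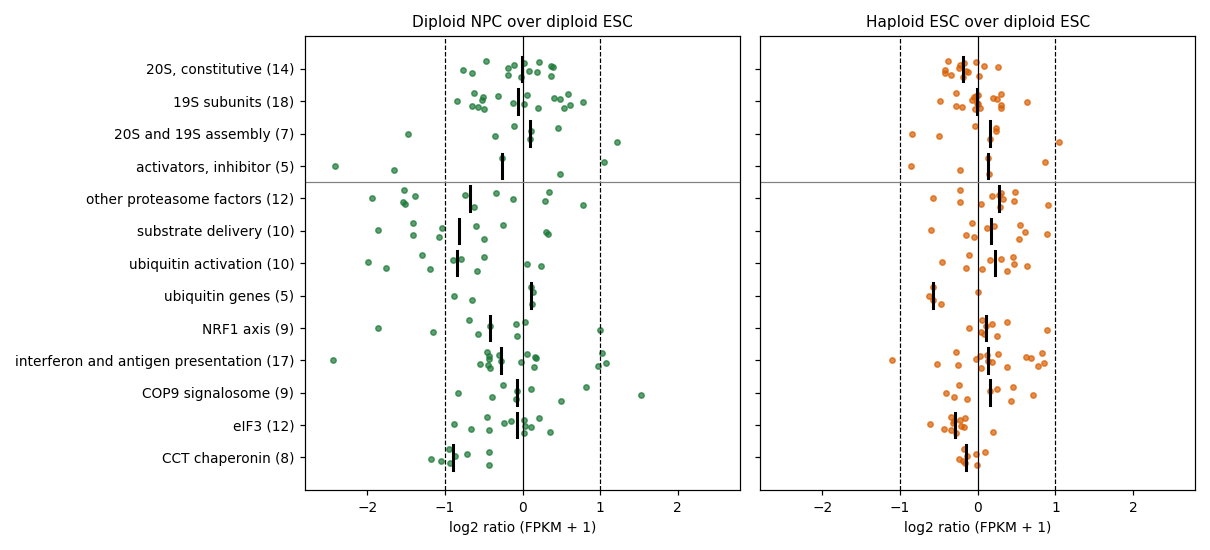
Log2 ratios of FPKM plus 1 for the proteasome groups (above the grey line) and for related gene lists and complexes (below it), with 1 point for each gene, a bar at the median, dashed lines at 2-fold and the number of genes in parentheses. In the left panel the medians of substrate delivery (-0.82), ubiquitin activation (-0.85) and the CCT chaperonin (-0.90) lie left of the 20S and 19S medians, which are near 0.

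The position of a member in these comparisons also went with the length of its gene. Across 45 proteasome rows with a known gene span, the log2 ratio in NPCs had a Spearman rho of -0.57 with the span, and that in haploid ESCs a rho of 0.43. Over 13318 genes tested these were -0.10 and 0.28. The points share 3 libraries, and genes are not independent replicates. Of the 22 shorter members, 15 were above 0 in NPCs with a median of 0.20, and of the 23 longer ones 7 were, with a median of -0.26. In haploid ESCs 6 of the shorter and 12 of the longer members were above 0. PSMG3 and PSME2, higher in NPCs, are among the shortest genes, and PSME4 and PSMD5, lower in NPCs, are among the longer ones, as the plot by span rank shows. PSME3, also lower in NPCs, is among the shorter ones. The part of gene length in these ratios was not tested.

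**Figure D5:**
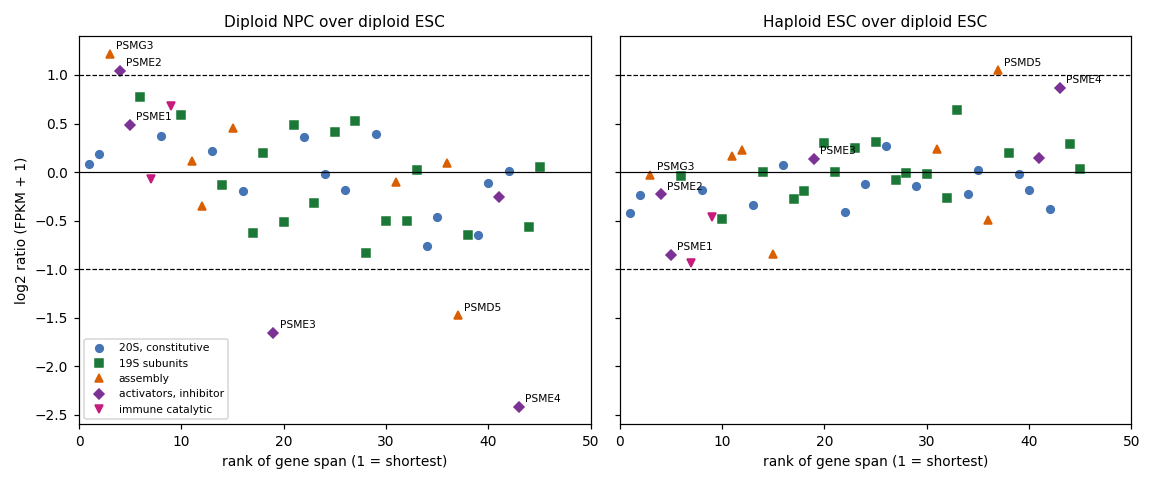
Log2 ratio of FPKM plus 1 against the rank of gene span on the reference assembly, from the shortest gene at 1 to the longest at 45, for diploid NPCs over diploid ESCs (left) and haploid over diploid ESCs (right), with symbols for the role groups and dashed lines at 2-fold. Points fall toward the right in the left panel (rho -0.57) and climb in the right panel (rho 0.43).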

How the data were processed

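A BGISEQ-500 instrument read the libraries, made from total RNA. The reads were, per the labels' protocols, aligned to UCSC Rhesus8 allowing 2 mismatches, featureCounts with its defaults counted them per gene, and a gene needed more than 10 reads in total to be kept. The submitters' processing notes name STAR 2.4. The authors deposited FPKM values with 2 decimals; the formula behind them and the read totals were not given. Columns were matched to samples by description, and 1 column that matched none was not used. Ratios are log2 of the deposited FPKM plus 1, and 14474 genes whose mean reached 1 FPKM were compared. The role lists, the related lists and the rule for named genes (catalytic pairs, activators, assembly factors, each role's highest and lowest ratio and all members past 2-fold) were chosen with earlier results of these data known. Further genes of the related lists were picked once their values had been seen. Gene spans, overlaps and neighbours came from RefSeq's table for T2T-MMU8v2.0, another assembly, which holds 48 of the 49 rows, and no coordinates are printed. Relative depth used genes at 0.15 to 0.6 FPKM in both libraries. The alternatives tried were adding 0.1 FPKM before the log, dropping the filter or raising it to 5 FPKM, scaling by TMM (a trimmed mean of ratios) or by TPM (every library summing to 1000000), thresholds of 1.5-fold and 4-fold, and proteasome proteins alone. The scripts were tested on simulated data. Versions were Python 3.11.15 with pandas 2.3.3, numpy 2.4.6, matplotlib 3.10.9 and scipy 1.17.1.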

Additional observations from a re-analysis of the deposited data

How the results depend on the processing

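No paired analysis was possible because each group held 1 library, and no library could be left out. Of 697 single-gene ratios under the alternatives, none changed sign among those past 2-fold, 7 came to lie past 2-fold and 1 (PSME2 in NPCs, under TPM) no longer did. Many of the 697 could not move, because some settings only choose rows. These gave 94 values (no filter), 90 (mean of at least 5 FPKM), 92 (proteasome proteins alone) and 92 (without the second PSMC1 row). Adding 0.1 FPKM cannot change a sign, and TMM and TPM shift ratios by less than 2-fold. The lack of sign changes was thus largely fixed in advance. The 3 higher and 3 lower members in NPCs became 7 and 8 at 1.5-fold (background 32.5% and 30.8%) and 1 and 1 at 4-fold; against haploid ESCs, an alternative added after seeing the data, 7 were higher (background 26%). In haploid ESCs the 1 higher and 0 lower became 3 and 4 at 1.5-fold (18.4% and 18.6%) and 0 higher at 4-fold; the lower count was 1 with a pseudocount of 0.1 and the higher count was 0 at a mean of at least 5 FPKM and 2 under TPM. Under TPM the members' median in haploid ESCs was 0.17, as that of all genes was 0.21. With 1 FPKM added, the PSMB8 share was 1.13% in diploid NPCs, 0.58% in haploid ESCs and 0.98% in diploid ESCs, and the PSMB9 share 0.68% in haploid and 0.69% in diploid ESCs. Summed over the 3 pairs, the immune share was 4.51% in diploid NPCs, 2.79% in haploid ESCs and 4.56% in diploid ESCs. Depth in reads is unknown, which limits PSMB8, PSMB9, PSMB11 and PSMD5 most.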

Other observations

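The table also holds 10 rows with a LOC symbol whose deposited orthology term names a proteasome subunit, and 3 of them had a mean of at least 1 FPKM. LOC698288, with the term of the ATPase that PSMC5 encodes, was at 7.05 FPKM in diploid NPCs, 0.43 FPKM in haploid ESCs and 1.54 FPKM in diploid ESCs. LOC699631, with the term of the alpha subunit that PSMA6 encodes, was at 0.44, 5.5 and 2.1 FPKM, and LOC713482, with that of PSMA3, at 0, 2.09 and 1.22 FPKM. All values lie far below those of the named genes, and reads of near-identical copies may be split between rows. Of the 48 members placed on the reference assembly, 21 overlap another annotated gene.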
